A study of Rattus norvegicus with 18 samples.

Results

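Antioxidant enzymes keep reactive oxygen species in check, and 10 of their genes are described here in rats of 2, 10 and 20 months, in the nucleus pulposus (NP), which is the soft centre of the disc between the vertebrae. The genes were chosen by name, as Sod1, Sod2, Sod3, Cat, Gpx1, Gpx3, Gpx4, Prdx1, Hmox1 and Nqo1, with the row of highest mean expression taken where a name has several rows. Each name had 1 row, so the set is 10 of the 18923 genes in the deposited table, and all 10 passed the filter on low values that left 11708 genes for testing. The study asked how the m6A methylome and gene expression of the disc differ with age. Its labels list 18 libraries, of which the 9 input libraries, 3 at each age, give poly(A) RNA abundance, while the 9 libraries immunoprecipitated for N6-methyladenosine (m6A) are not analysed here. The sources used here give neither strain nor sex, nor whether libraries of the same age stem from different rats. The p-values therefore measure the spread between libraries alone, and that spread may be technical.

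Superoxide made by mitochondria and oxidases is turned into hydrogen peroxide by the superoxide dismutases. Catalase, the glutathione peroxidases and the peroxiredoxins then reduce hydrogen peroxide or lipid peroxides, and heme oxygenase 1 and the quinone reductase NQO1 are stress-induced enzymes that are textbook targets of the transcription factor NRF2. The NP is poor in oxygen and has no blood vessels of its own, and oxidative stress is a widely studied feature of its aging.

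Values are FPKM as deposited, that is, fragment counts scaled by transcript length and by the fragments mapped in the library. The libraries held 3.53 to 5.04 gigabases of aligned sequence, judged from the deposited ratio of coverage to FPKM. The 20-month libraries stood apart. The commonest read length was not given but inferred from deposited coverage times transcript length. It came to 141 bases in each 20-month library and 132 bases in each 2- and 10-month library. The mitochondrial share of summed FPKM at 20 months was 0.0868 to 0.111%, against 0.456 to 0.690% in the younger libraries. Ribosomal protein genes held 19.1 to 19.8% at 20 months, against 12.8 to 15.3%. This difference cannot be told apart from age in any comparison with 20 months. The median gene moved by -0.20 (log2) for 20 against 2 months and by -0.23 for 20 against 10 months, so changes are also given after median-of-ratios scaling (scaling for short), which brings the median gene to 0.00. Krt19, a keratin gene of NP cells that descend from the notochord, had 5129 to 5488 FPKM at 2 months, 3687 to 3779.5 at 10 months, then 3247 to 3412 at 20 months. It fell by 0.50 (log2) at 10 against 2 months (adjusted p = 3.38e-05) and by 0.66 at 20 against 2 months (adjusted p = 7.41e-07, and -0.43 after scaling), and for 20 against 10 months it was -0.16 as deposited and 0.11 after scaling (adjusted p = 0.00352 and 0.0314). Not all NP markers followed Krt19. Krt18 fell by 0.47 at 10 against 2 months (adjusted p = 0.000194) and rose by 0.40 at 20 against 2 months (adjusted p = 7.78e-05). Krt8 fell by 0.41 at 10 against 2 months (adjusted p = 0.000119) and was not called at 20 against 2 months (0.04, adjusted p = 0.368). After scaling these 20-month changes were 0.63 and 0.27. Of 9 tested NP genes 1 rose and 6 fell at 20 against 2 months, and 4 and 5 after scaling. Of all tested genes 18.6% rose and 49.6% fell there, and 31.1% and 31.2% after scaling. In bulk tissue, fewer cells of a type and less RNA per cell cannot be told apart.

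In the aging NP the antioxidant genes did not move as 1 group. Cat and Gpx3 rose at each step in age, Sod3 and Prdx1 fell at each step as deposited, and Sod1 rose at 20 months only. Hmox1 was higher at 10 and 20 months than at 2 months, Nqo1 was lower at 20 months than at both younger ages, and Gpx4 averaged 149 FPKM at every age. The limma F test for any age difference called 9 of the 10 genes at adjusted p under 0.05, against 75.4% of all tested genes, and Gpx4 was the exception (adjusted p = 0.994, and 0.00137 after scaling).

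**Figure D1:**
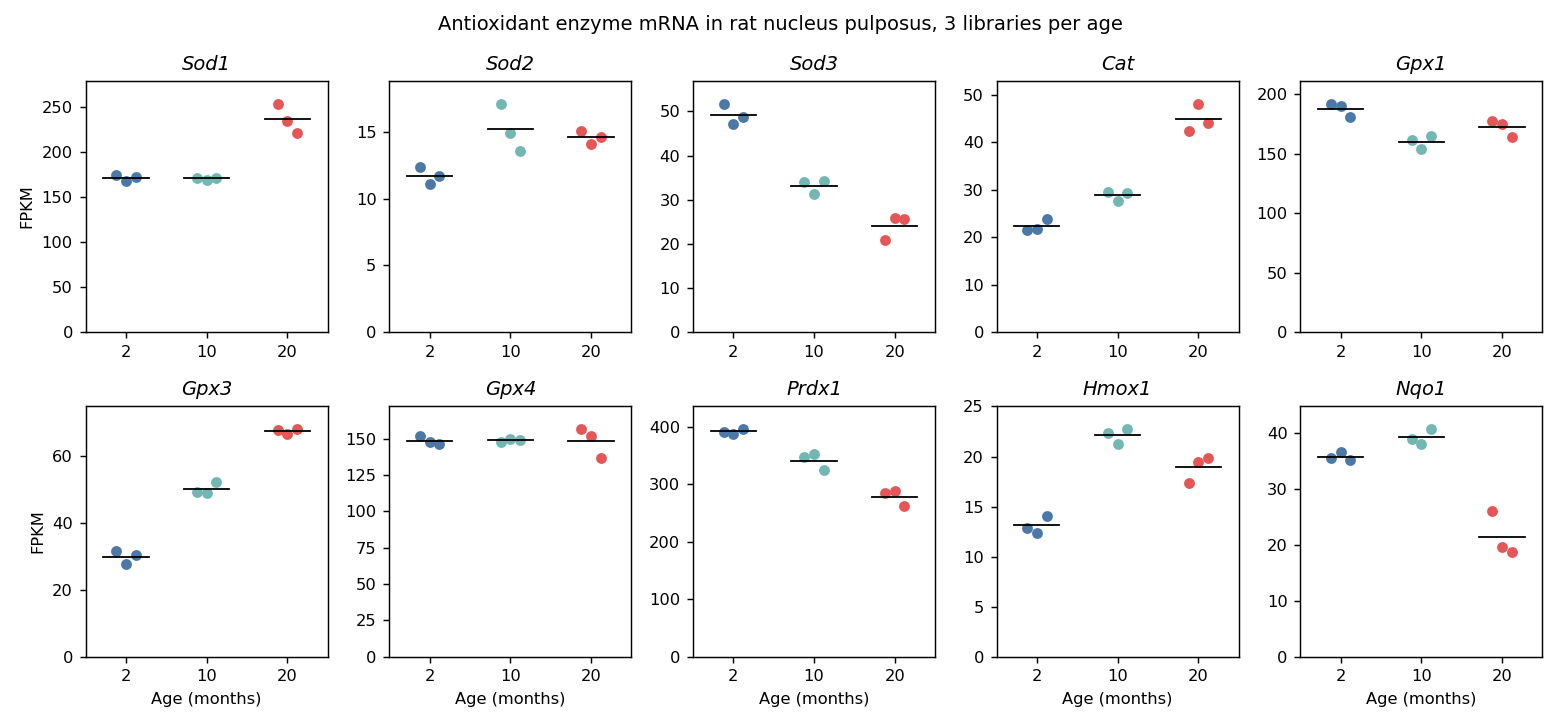
FPKM of each antioxidant enzyme gene (vertical axes, each from 0) at 2, 10 and 20 months (horizontal axes). Points are the 3 input libraries of an age and the black line is their mean; as deposited, Cat and Gpx3 step upwards and Sod3 and Prdx1 downwards with no overlap between ages, while Gpx4 lies at 149 FPKM on average at every age.

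The promoters of 4 of these genes are shown because the genes moved in clear and different ways: Cat and Gpx3 upwards at each age, Prdx1 downwards at each age as deposited and Nqo1 downwards at 20 months. The sequences are those of RefSeq on the GRCr8 build, from 250 bases before to 50 bases after the gene's start, 5′ to 3′ on the gene's strand, and capitals mark 4 motifs searched on both strands. These are the core of the antioxidant response element (ARE) bound by NRF2, TGACNNNGC, the AP-1 site TGANTCA, the GC box GGGCGG and the CCAAT box CCAAT. RefSeq entries matched 8 of the 10 genes, with 3 promoters for Gpx4, and those of Hmox1 and Sod3 are not shown.
Cat, chr3:110329477-110329776, minus strand, GRCr8: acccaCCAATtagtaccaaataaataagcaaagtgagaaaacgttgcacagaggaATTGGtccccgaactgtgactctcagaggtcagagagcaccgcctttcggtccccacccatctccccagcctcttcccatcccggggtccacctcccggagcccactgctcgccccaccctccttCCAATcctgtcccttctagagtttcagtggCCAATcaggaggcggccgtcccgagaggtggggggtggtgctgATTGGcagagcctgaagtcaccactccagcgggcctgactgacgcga
Gpx3, chr10:39529085-39529384, plus strand, GRCr8: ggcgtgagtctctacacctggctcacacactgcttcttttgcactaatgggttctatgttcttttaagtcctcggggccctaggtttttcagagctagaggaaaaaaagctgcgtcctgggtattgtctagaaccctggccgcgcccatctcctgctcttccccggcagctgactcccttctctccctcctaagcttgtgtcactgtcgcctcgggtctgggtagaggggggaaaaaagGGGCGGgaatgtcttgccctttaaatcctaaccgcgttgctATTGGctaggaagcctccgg
Prdx1, chr5:135383656-135383955, plus strand, GRCr8: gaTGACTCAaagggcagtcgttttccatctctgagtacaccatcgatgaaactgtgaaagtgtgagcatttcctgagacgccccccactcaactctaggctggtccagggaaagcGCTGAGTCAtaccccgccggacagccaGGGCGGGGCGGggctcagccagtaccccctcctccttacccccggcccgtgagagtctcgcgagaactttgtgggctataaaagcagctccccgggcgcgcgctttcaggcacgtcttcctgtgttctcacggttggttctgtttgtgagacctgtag
Nqo1, chr19:52220218-52220517, minus strand, GRCr8: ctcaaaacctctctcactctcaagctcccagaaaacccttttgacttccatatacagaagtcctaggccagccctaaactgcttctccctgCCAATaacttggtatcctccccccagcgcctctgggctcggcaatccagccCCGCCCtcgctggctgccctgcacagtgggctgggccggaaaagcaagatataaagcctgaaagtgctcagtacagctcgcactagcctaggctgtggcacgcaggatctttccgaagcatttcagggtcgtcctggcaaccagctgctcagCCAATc
The Prdx1 window held an ARE core on the opposite strand, which reads GCTGAGTCA on the gene's strand as printed. Its first printed base lies 135 bases before the start, and an AP-1 match overlaps it at 133 bases. A second AP-1 match lay 248 bases before the start of Prdx1 and 2 overlapping GC boxes at 108 and 103 bases. An ARE core and an AP-1 match occurred together in 1.14% of the 33469 rat promoters in the table, an ARE core, with or without the other, in 12.1% and an AP-1 match in 7.33%. Among the 8 matched members, the ARE core was otherwise found in the Sod2 window, 35 bases before the start. Hmox1 and Sod3 could not be searched, and sites outside the windows were not searched for any gene. The Cat window had no GC box and 5 CCAAT boxes, 4 of them at 245, 195, 70 and 40 bases before the start, and the Gpx3 window had 1 of each. The Nqo1 window had a GC box at 108 bases and a CCAAT box at 159 bases before the start, with another CCAAT box after it. GC boxes occurred in 33.1% and CCAAT boxes in 37.5% of all promoters, and in 7 and 5 of the 8 matched members. A match describes these letters only.

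The 3 superoxide dismutases serve different compartments and went different ways: Sod1 rose at 20 months, Sod3 fell and Sod2 rose at 10 months. Sod1, the copper- and zinc-dependent cytosolic enzyme (chromosome 11, 30363280 to 30368862 as the table gives it, plus strand, build not given in the sources used here, 5 exons), had 174, 168 and 172 FPKM at 2 months, 171, 169 and 171 at 10 months, and 253, 234 and 220.4 at 20 months. The 2- and 10-month libraries overlapped and every 20-month library lay above them. Sod1 was 1.37-fold higher at 20 than at 2 months (log2 fold change 0.45 ± 0.05 SE, adjusted p = 2.60e-05, and 0.68 after scaling), and its rise against 10 months was of like size (0.46 ± 0.05, adjusted p = 3.54e-05, and 0.73 after scaling). For 10 against 2 months the log2 fold change was -0.01, with a 95% interval of -0.11 to 0.10 (adjusted p = 0.905).

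Sod3, the dismutase secreted into the extracellular matrix (chromosome 14, 60958592 to 60964324, minus strand), had 51.7, 47.1 and 48.7 FPKM at 2 months, 33.9, 31.3 and 34.3 at 10 months, and 20.8, 25.8 and 25.6 at 20 months. The 3 ages did not overlap. Sod3 fell by 0.55 ± 0.08 (log2) at 10 against 2 months (adjusted p = 0.00114) and by 1.01 ± 0.08 at 20 against 2 months (adjusted p = 6.15e-06, and -0.78 after scaling). Its fall at 20 against 10 months, -0.45 ± 0.08 (adjusted p = 0.000989), was -0.20 after scaling and no longer called (adjusted p = 0.0861).

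Sod2, the manganese-dependent enzyme of the mitochondrial matrix (chromosome 1, 47914759 to 47921587, minus strand), was the lowest of the 10 genes at every age. It had 12.4, 11.1 and 11.7 FPKM at 2 months, 17.1, 14.9 and 13.6 at 10 months, and 15.1, 14.1 and 14.6 at 20 months. All libraries of both older ages lay above those of 2 months and overlapped each other. Sod2 rose by 0.34 ± 0.08 at 10 against 2 months (adjusted p = 0.00989) and by 0.29 ± 0.08 at 20 against 2 months (adjusted p = 0.00762, and 0.51 after scaling). Its log2 fold change for 20 against 10 months was -0.05 (adjusted p = 0.609) and 0.20 after scaling (adjusted p = 0.0432).

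Within a library, ratios between genes do not depend on the scaling. Of the summed FPKM of the 3 dismutases, Sod3 made up 20.8 to 21.7% at 2 months, 14.5 to 15.7% at 10 months, and 7.20, 9.41 and 9.81% at 20 months. At 2 months Sod1 took up 73.1 to 74.3%, at 10 months 77.1 to 78.5%, and at 20 months 84.6 to 87.6%. The share of Sod2 peaked at 10 months with 6.21 to 7.67%, and its ranges at 20 and 2 months overlapped.

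Among the enzymes that remove peroxides, Cat encodes catalase, the peroxisomal enzyme that splits hydrogen peroxide into water and oxygen (chromosome 3, 93379874 to 93412058, minus strand, 13 exons). It had 21.5, 21.7 and 23.8 FPKM at 2 months, 29.5, 27.7 and 29.3 at 10 months, and 42.3, 48.1 and 44.1 at 20 months. Each age lay wholly above the one before. Cat was 1.29-fold higher at 10 than at 2 months (log2 0.35 ± 0.06, adjusted p = 0.00211) and 2.01-fold higher at 20 than at 2 months (0.97 ± 0.06, adjusted p = 1.13e-06, and 1.20 after scaling). It rose further at 20 against 10 months (0.62 ± 0.06, adjusted p = 2.61e-05, and 0.88 after scaling).

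Gpx3 encodes the secreted glutathione peroxidase, a selenoprotein (chromosome 10, 40247436 to 40255422, plus strand). It had 31.5, 27.6 and 30.5 FPKM at 2 months, 49.1, 48.8 and 52.2 at 10 months, and 67.6, 66.5 and 68.1 at 20 months, again with no overlap between ages. Its rise was the largest of the 10 genes for 20 against 2 months, as deposited and after scaling. The log2 fold change was 0.73 ± 0.05 at 10 against 2 months (adjusted p = 3.05e-05) and 1.15 ± 0.05 at 20 against 2 months (adjusted p = 2.32e-07, and 1.38 after scaling), which is a 2.26-fold higher mean. At 20 against 10 months it rose by 0.42 ± 0.05 (adjusted p = 0.000101, and 0.69 after scaling).

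Gpx1, the cytosolic and mitochondrial glutathione peroxidase and also a selenoprotein (chromosome 8, 117117430 to 117118522, plus strand, 2 exons), had 192, 190.4 and 181 FPKM at 2 months, 162, 154 and 165 at 10 months, and 178, 175 and 164 at 20 months. The libraries of both older ages lay below those of 2 months and overlapped each other. Gpx1 fell by 0.22 ± 0.04 at 10 against 2 months (adjusted p = 0.00474). Its 20-month change against 2 months depended on the scaling: it was -0.12 ± 0.04 as deposited (adjusted p = 0.0294) and 0.11 ± 0.04 after scaling (adjusted p = 0.0452). As deposited the call was lost without 2-month replicate 1, without 2-month replicate 2 or without 20-month replicate 3 (adjusted p of 0.0985, 0.0873 and 0.0833). At 20 against 10 months Gpx1 was uncalled as deposited (0.10, adjusted p = 0.0650) and called after scaling at 0.37 (adjusted p = 9.63e-05). It was also called when 20-month replicate 3 was left out, at 0.14 (adjusted p = 0.0187). The ratio of Gpx3 to Gpx1 climbed with age: at 2 months it was 0.145 to 0.169, at 10 months 0.303 to 0.316, and at 20 months 0.379 to 0.415.

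Gpx4 encodes the glutathione peroxidase that reduces lipid peroxides in membranes and is known as a brake on ferroptosis (chromosome 7, 12516352 to 12519154, minus strand). It had 152, 148 and 146 FPKM at 2 months, 148, 149.7 and 149 at 10 months, and 157, 152 and 137 at 20 months. The libraries of the 3 ages overlapped. The 95% interval of its log2 change was -0.10 to 0.11 for 10 against 2 months and -0.11 to 0.11 for 20 against 2 months as deposited, and after scaling Gpx4 stood 0.23 ± 0.04 higher at 20 than at 2 months (adjusted p = 0.00173). Gpx4 was the sole member listed with more than 1 transcript. Of its 6 transcripts, ENSRNOT00000077681 held 61.7 to 67.5% of the summed isoform FPKM at 2 months, 64.1 to 66.4% at 10 months, then 60.7 to 66.2% at 20 months. ENSRNOT00000093376 held 29.7 to 35.1% at 2 months, 30.1 to 32.7% at 10 months, then 29.9 to 35.2% at 20 months, and the ranges of the 3 ages overlapped for both. Both were tested for a change of share and neither passed in any comparison (limma, with 0 of 2 also at an unadjusted p under 0.05), the adjusted p for 20 against 2 months being 0.744 and 0.903. Of 2765 isoforms tested, 0.253% passed at 10 against 2 months, 10.8% at 20 against 2 months and 6.98% at 20 against 10 months. Of the others, ENSRNOT00000093137 stood at 6.77 ± 0.729, 8.08 ± 0.168 and 8.65 ± 1.42 FPKM at 2, 10 and 20 months, and ENSRNOT00000093426 averaged 1.03 FPKM over the 9 libraries. The Gpx4 isoforms summed to 298 FPKM at 2 months, above the gene's own value of 149, so its place among the other genes depends on which is used.

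Prdx1 encodes a cytosolic peroxiredoxin that reduces hydrogen peroxide with electrons from thioredoxin (chromosome 5, 135536413 to 135551990, plus strand). It was the highest of the 10 genes at every age on the scale of gene FPKM. It had 391, 388 and 397 FPKM at 2 months, 347, 352 and 324 at 10 months, and 284, 289 and 262 at 20 months, with no overlap between ages. Prdx1 fell by 0.20 ± 0.04 at 10 against 2 months (adjusted p = 0.00937) and by 0.49 ± 0.04 at 20 against 2 months (adjusted p = 1.30e-05, and -0.26 after scaling). For 20 against 10 months its change was -0.29 ± 0.04 as deposited (adjusted p = 0.000427) and -0.02 after scaling (adjusted p = 0.661). Cat gained ground on Prdx1 with age: the ratio of Cat to Prdx1 was 0.0550 to 0.0600 at 2 months, 0.0786 to 0.0906 at 10 months, then 0.149, 0.166 and 0.168 at 20 months.

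**Figure D2:**
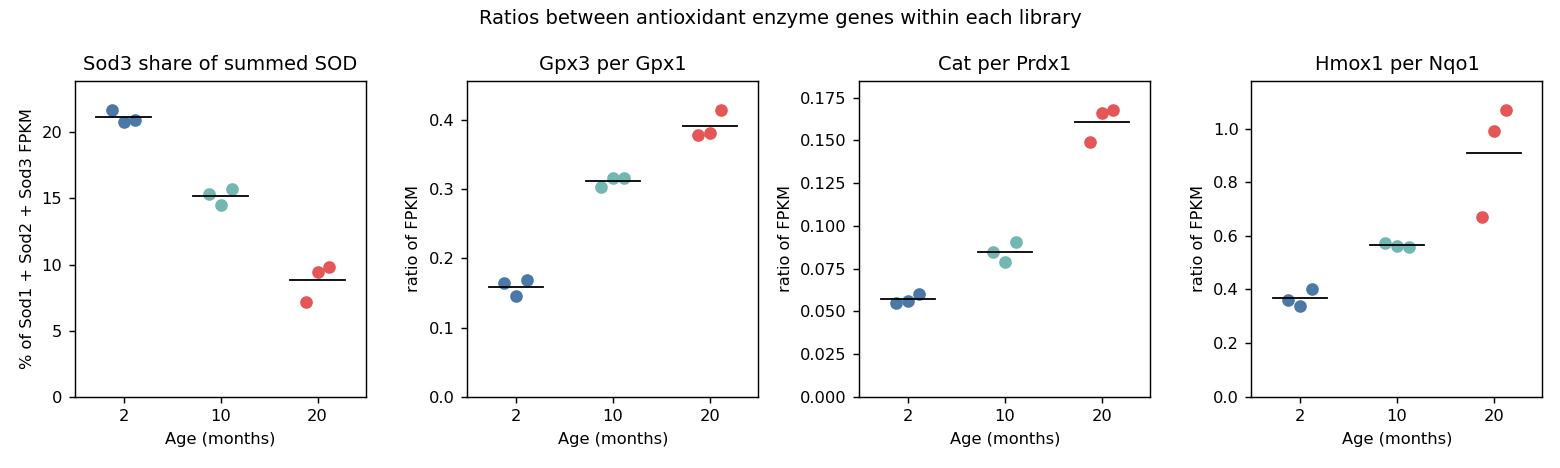
Ratios of FPKM within each library (vertical axes, from 0) at 2, 10 and 20 months (horizontal axes): the Sod3 share of the 3 dismutases in percent, Gpx3 per Gpx1, Cat per Prdx1 and Hmox1 per Nqo1. Points are libraries and lines are means of 3; the Sod3 share ends at 7.20 to 9.81% at 20 months, and the Hmox1 per Nqo1 ratio is most uneven at that age.

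The stress-induced pair Hmox1 and Nqo1, which both lie on chromosome 19, parted with age. Hmox1 encodes heme oxygenase 1, which breaks heme down to biliverdin, iron and carbon monoxide (14508616 to 14515456, plus strand). It had 12.9, 12.4 and 14.1 FPKM at 2 months, 22.4, 21.3 and 22.8 at 10 months, and 17.4, 19.5 and 19.9 at 20 months. Every library of both older ages lay above those of 2 months, and those of 20 months lay below those of 10 months. Hmox1 rose by 0.71 ± 0.06 at 10 against 2 months (adjusted p = 9.18e-05) and by 0.50 ± 0.06 at 20 against 2 months (adjusted p = 0.000109, and 0.71 after scaling). For 20 against 10 months it was -0.22 ± 0.06 as deposited (adjusted p = 0.0138) and 0.04 after scaling (adjusted p = 0.659), so no direction held under both.

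Nqo1 encodes a quinone reductase that uses NADH or NADPH (38422164 to 38437180, plus strand). It had 35.6, 36.6 and 35.1 FPKM at 2 months, 38.9, 38.0 and 40.8 at 10 months, and 26.0, 19.7 and 18.7 at 20 months. The 20-month libraries lay below all others, with replicate 1 the highest of them. Nqo1 fell by 0.73 ± 0.10 at 20 against 2 months (adjusted p = 0.000200, and -0.51 after scaling) and by 0.86 ± 0.10 at 20 against 10 months (adjusted p = 9.99e-05, and -0.60 after scaling). At 10 against 2 months its libraries did not overlap but the change of 0.13 ± 0.10 was not called (adjusted p = 0.371). With only those ages fitted, or without 20-month replicate 1, it was called (adjusted p of 0.0227 and 0.0352). Hmox1 per Nqo1 was 0.339 to 0.403 at 2 months, 0.559 to 0.575 at 10 months, then 0.671, 0.990 and 1.07 at 20 months.

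Counted together, at 10 against 2 months 4 members rose (Sod2, Cat, Gpx3 and Hmox1) and 3 fell (Sod3, Gpx1 and Prdx1), and the limma test called 30.3% of all tested genes, 19.0% higher and 11.4% lower. After scaling the same 4 rose and the same 3 fell, among 29.7% of all genes. The 2 ages were fully separated for 8 members, 5 higher and 3 lower, and for 53.8% of all genes, 32.3% higher and 21.5% lower. At 20 against 2 months 5 rose (the same 4 and Sod1) and 4 fell (Sod3, Gpx1, Prdx1 and Nqo1), where 68.2% of all genes were called, 18.6% higher and 49.6% lower. After scaling 7 rose and 3 fell, among 62.4% of all genes, 31.1% higher and 31.2% lower. The libraries of 9 members did not overlap, 5 higher and 4 lower, nor did those of 70.4% of all genes, 19.4% higher and 51.0% lower. At 20 against 10 months 3 rose (Sod1, Cat and Gpx3) and 4 fell (Sod3, Prdx1, Hmox1 and Nqo1), where 64.7% of all genes were called, 11.4% higher and 53.3% lower. After scaling 6 rose and Nqo1 alone fell, among 52.5% of all genes, 26.8% higher and 25.7% lower. Here the libraries of 7 members did not overlap, 3 higher and 4 lower, against 67.9% of all genes, 12.6% higher and 55.3% lower. The median log2 change of the 10 members was 0.07 at 10 against 2 months, 0.15 at 20 against 2 months and -0.03 at 20 against 10 months, beside 0.04, -0.20 and -0.23 for all tested genes. As deposited, Cat and Gpx3 were ordered upwards over the 3 ages without overlap, as were 6.58% of all tested genes, and Sod3 and Prdx1 downwards, as were 14.6%. The comparisons share libraries, so they are not independent of each other.

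**Figure D3:**
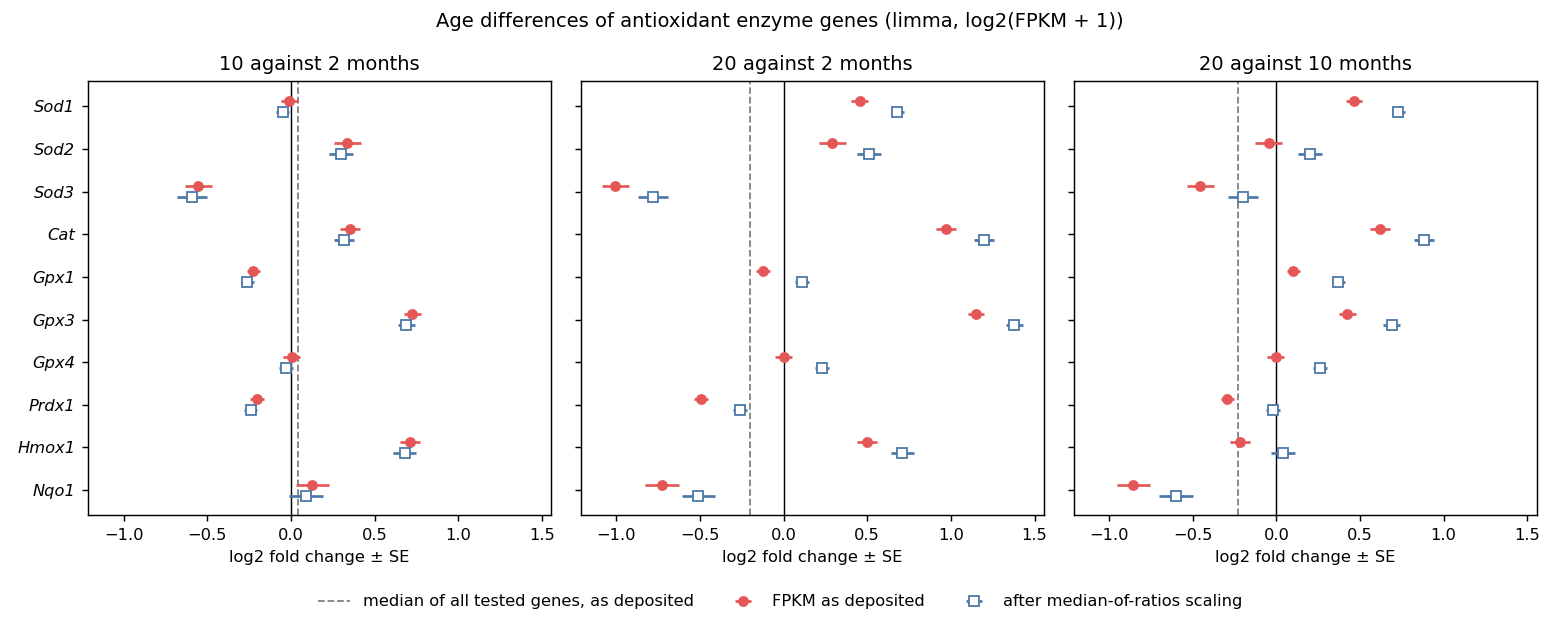
Log2 fold change (horizontal axis) of each antioxidant enzyme gene (rows) in the 3 age comparisons, older over younger, with bars for the standard error. Filled points are FPKM as deposited, open squares follow median-of-ratios scaling, and the dashed line is the median of all tested genes as deposited; scaling turns Gpx1 from -0.12 to 0.11 for 20 against 2 months, while Cat and Gpx3 stay above 0 in all panels.

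On the per-length scale of gene FPKM the members spanned a range that at 2 months ran from Sod2 at 11.8 ± 0.624 to Prdx1 at 392 ± 4.37 FPKM (SD over 3 libraries). The order at 2 months was Prdx1, Gpx1, Sod1, Gpx4, Sod3, Nqo1, Gpx3, Cat, Hmox1 and Sod2, and no neighbours in it overlapped. At 10 months it was Prdx1, Sod1, Gpx1, Gpx4, Gpx3, Nqo1, Sod3, Cat, Hmox1 and Sod2, again with no overlap. At 20 months the order was Prdx1, Sod1, Gpx1, Gpx4, Gpx3, Cat, Sod3, Nqo1, Hmox1 and Sod2. There Sod3 overlapped Nqo1 and Nqo1 overlapped Hmox1. Among the 11708 tested genes, Gpx3 ranked 847 by mean FPKM at 20 months and 2186 at 2 months, and Cat ranked 1298 at 20 months and 2919 at 2 months. The deposited coverage behind the members was 53.2 to 74.2 reads per base for Sod2, the shallowest, and 1001 to 1969.9 for Prdx1.

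Genes that work with these enzymes were counted in 10 lists of redox genes, of which 120 of 144 members were tested. At 10 against 2 months 23 rose and 20 fell as deposited, and 19 rose and 23 fell after scaling. Over all tested genes 19.0% rose and 11.4% fell as deposited, and 15.1% and 14.5% after scaling. At 20 against 2 months 21 rose and 60 fell as deposited, where 18.6% of all genes rose and 49.6% fell. After scaling 41 rose and 34 fell, where 31.1% of all genes rose and 31.2% fell. At 20 against 10 months 17 rose and 60 fell as deposited, where 11.4% of all genes rose and 53.3% fell. After scaling 42 rose and 24 fell, where 26.8% of all genes rose and 25.7% fell. The balance between rising and falling genes thus changed with the scaling in each comparison. Within single lists, 42.9% (peroxiredoxins and thioredoxins) to 83.3% (selenoproteins) of tested genes were called at 20 against 2 months, beside 68.2% of all genes. Below, levels are means ± SD over 3 libraries and log2 changes are ± SE, for 20 against 2 months unless another comparison is named. The lists' median log2 changes at 20 against 2 months ran from -0.51 for NADPH supply and -0.34 for glutathione to 0.04 for the NRF2 regulators, beside -0.20 over all tested genes. The other lists lay between, at -0.26 for heme and iron, -0.20 for copper and other metals, -0.16 for selenoproteins, -0.13 for peroxisomes, -0.10 for FOXO, SIRT and PGC1, -0.04 for superoxide sources and -0.02 for peroxiredoxins and thioredoxins. After scaling, which puts the median gene at 0.00, they ran from -0.30 for NADPH supply to 0.27 for the NRF2 regulators.

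**Figure D4:**
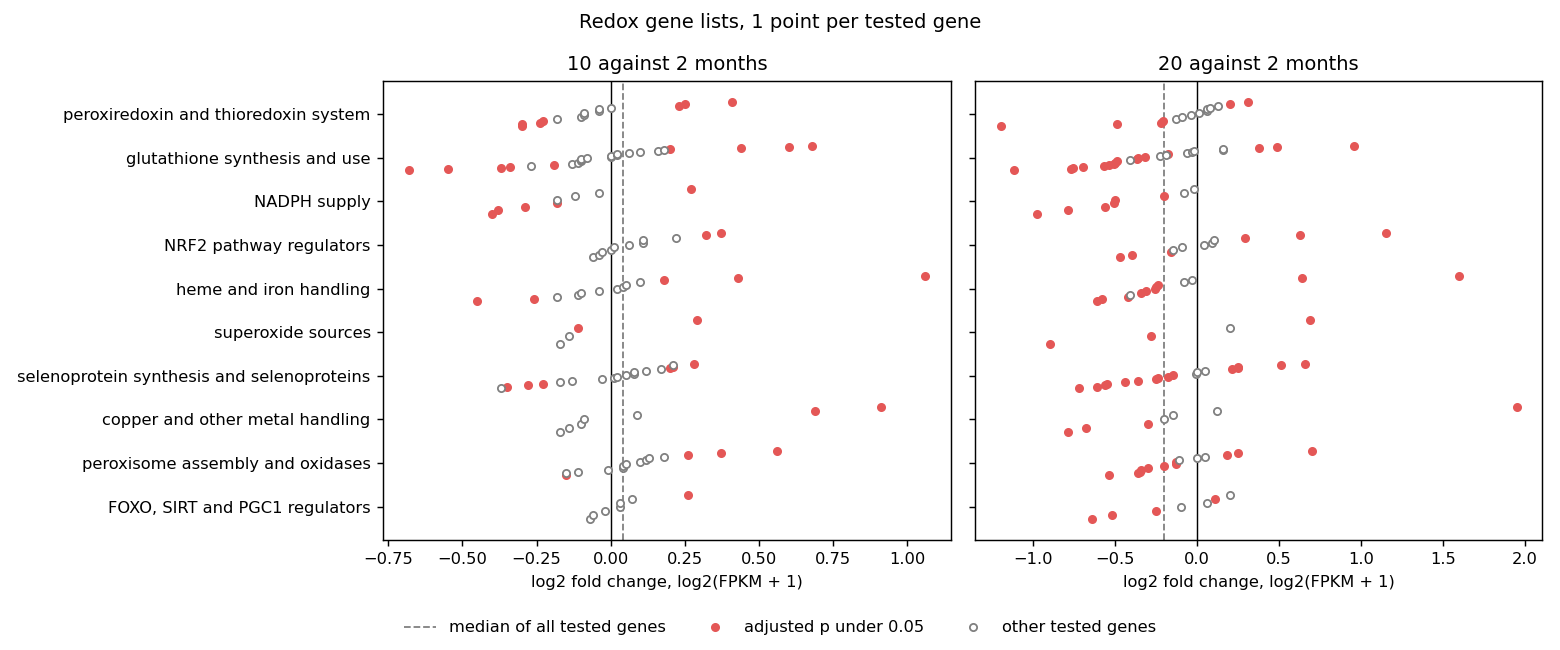
Log2 fold change on the log2(FPKM + 1) scale (horizontal axes) of the tested genes of 10 redox lists (rows) for 10 against 2 and 20 against 2 months. Filled red points passed the limma test at adjusted p under 0.05, open points did not, and the dashed line is the median of all tested genes, 0.04 and -0.20; Mt2A is the rightmost point of the right panel at 1.95.

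The peroxiredoxin and thioredoxin list, which holds the partners of Prdx1, had 3 of 14 tested genes higher and 4 lower at 10 against 2 months, and 2 higher and 4 lower at 20 against 2 months (8 and 2 after scaling). Of all tested genes, 19.0% were higher and 11.4% lower at 10 against 2 months. At 20 against 2 months these shares were 18.6% and 49.6% (31.1% and 31.2% after scaling). Prdx4, the peroxiredoxin of the endoplasmic reticulum, fell to 38.8 ± 3.17 FPKM at 20 months, against 54.9 ± 1.36 FPKM at 2 months (log2 -0.49 ± 0.06, adjusted p = 6.25e-05, and -0.27 after scaling). Sesn3, a stress-induced sestrin, fell to 11.6 ± 0.770 FPKM, against 27.9 ± 0.666 FPKM at 2 months (-1.20 ± 0.06, adjusted p = 3.82e-07). Txnrd1, which encodes the cytosolic thioredoxin reductase, rose by 0.23 at 10 against 2 months (adjusted p = 0.00472) and fell by 0.44 at 20 against 10 months (adjusted p = 3.85e-05, and -0.19 after scaling). Sesn2, another sestrin, stood at 13.6 ± 0.572 FPKM at 20 months and 13.5 ± 0.587 FPKM at 2 months, and fell by 0.24 at 10 against 2 months (adjusted p = 0.00669). At 20 against 10 months Sesn2 rose by 0.25 (adjusted p = 0.00197, and 0.50 after scaling). Against 2 months its 20-month change was uncalled as deposited (0.01, adjusted p = 0.893) and called after scaling (0.22, adjusted p = 0.00292).

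Genes of glutathione synthesis and use, on which the glutathione peroxidases depend, had 4 of 24 higher and 5 lower at 10 against 2 months, and 3 higher and 13 lower at 20 against 2 months (6 and 9 after scaling). Gclc, which encodes the catalytic subunit of the rate-limiting enzyme of glutathione synthesis, stood at 91.1 ± 4.85 FPKM at 20 months and 129.6 ± 0.835 FPKM at 2 months (-0.51 ± 0.04, adjusted p = 4.46e-06, and -0.28 after scaling). The glutathione transferase gene Gstm1 fell to 49.9 ± 5.26 FPKM at 20 months, against 84.9 ± 1.59 FPKM at 2 months (-0.76 ± 0.07, adjusted p = 9.59e-06, and -0.53 after scaling). Gpx7, a glutathione peroxidase family gene of the endoplasmic reticulum, fell by 1.12 ± 0.10 (adjusted p = 1.46e-05). In contrast the monothiol glutaredoxin gene Glrx3 rose to 115 ± 0.452 FPKM at 20 months, against 58.5 ± 0.277 FPKM at 2 months (0.96 ± 0.03, adjusted p = 2.92e-08). Of 8 genes that supply NADPH, 1 rose and 4 fell at 10 against 2 months, and 0 rose and 6 fell at 20 against 2 months (1 and 5 after scaling). Beside the glutathione and NADPH lists, 19.0% of all tested genes rose and 11.4% fell at 10 against 2 months. At 20 against 2 months 18.6% rose and 49.6% fell (31.1% and 31.2% after scaling). Idh1, the cytosolic isocitrate dehydrogenase, fell by 0.98 ± 0.07 at 20 against 2 months (adjusted p = 2.89e-06, and -0.76 after scaling), and Me1, the cytosolic malic enzyme, by 0.56 ± 0.04 (adjusted p = 3.06e-06, and -0.33). Tkt, the transketolase of the pentose phosphate pathway, fell by 0.79 ± 0.07 (adjusted p = 8.11e-06, and -0.56 after scaling), and Idh2, the mitochondrial isocitrate dehydrogenase, by 0.50 ± 0.05 (adjusted p = 1.37e-05, and -0.28).

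Regulators of NRF2 rose in 2 and fell in 0 of 11 genes at 10 against 2 months (4 and 0 with only those ages fitted), and 3 rose and 3 fell at 20 against 2 months (6 and 1 after scaling). The shares over all tested genes were 19.0% and 11.4%, then 18.6% and 49.6% (31.1% and 31.2% after scaling). Nfe2l2, which encodes NRF2, averaged 23.6 ± 1.29 FPKM at 2 months, 27.7 ± 1.41 at 10 months, then 17.7 ± 2.00 at 20 months. Its fall at 20 against 10 months, -0.63 ± 0.08 (adjusted p = 0.000143), was -0.37 after scaling, and its fall against 2 months (-0.40, adjusted p = 0.00162) was not called after scaling (-0.18, adjusted p = 0.0636). Keap1, the adaptor that targets NRF2 for degradation, fell by 0.47 ± 0.07 at 20 against 2 months (adjusted p = 0.000243, and -0.26 after scaling). Cul3, the scaffold of the same ubiquitin ligase, rose by 0.63 ± 0.04 (adjusted p = 1.03e-06, and 0.85 after scaling). Park7, which encodes a redox-sensitive chaperone, rose by 0.29 ± 0.04 (adjusted p = 0.000104, and 0.51 after scaling). Bach1, a repressor of Hmox1, stood at 9.95 ± 1.03 FPKM at 20 months and 9.30 ± 0.600 at 2 months (adjusted p = 0.452, and 0.0224 after scaling at log2 0.30).

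Around heme oxygenase, 3 of 13 genes of heme and iron handling rose and 2 fell at 10 against 2 months, and 2 rose and 8 fell at 20 against 2 months (3 and 3 after scaling). Beside this list and that of the metals, 19.0% of all tested genes rose and 11.4% fell at 10 against 2 months. At 20 against 2 months 18.6% rose and 49.6% fell over all tested genes (31.1% and 31.2% after scaling). The ferritin heavy chain gene Fth1, which stores the iron that heme breakdown frees, rose to 2283 ± 127 FPKM at 20 months, against 1461 ± 16.1 at 2 months (0.64 ± 0.04, adjusted p = 1.75e-06). Cp, which encodes the ferroxidase ceruloplasmin, rose by 1.60 ± 0.12 (adjusted p = 3.63e-06), and the heme transporter gene Slc48a1 fell by 0.61 ± 0.06 (adjusted p = 2.71e-05, and -0.38 after scaling). Tfrc, the transferrin receptor gene, rose by 0.43 at 10 against 2 months (adjusted p = 8.69e-05) and fell by 0.46 at 20 against 10 months (adjusted p = 1.30e-05, and -0.20 after scaling). In the list of copper and other metals, 2 of 7 rose and 0 fell at 10 against 2 months, and 1 rose and 3 fell at 20 against 2 months (2 and 2 after scaling). The metallothioneins, which bind zinc and copper, were called for Mt2A and Mt1, and a further gene of the family, Mt3, was below the filter. Mt2A averaged 180.0 ± 4.54 FPKM at 2 months, 339 ± 1.94 at 10 months, then 699.7 ± 30.5 at 20 months (1.95 ± 0.04 for 20 against 2 months, adjusted p = 1.07e-08). Mt1 averaged 104 ± 2.11 FPKM at 2 months, 168 ± 4.23 at 10 months, then 65.1 ± 9.02 at 20 months, a fall of 0.68 ± 0.08 for 20 against 2 months (adjusted p = 7.52e-05, and -0.45 after scaling) after a rise at 10 months (0.69, adjusted p = 0.000401). Ccs, the chaperone that loads copper into Sod1, stood at 20.4 ± 1.18 FPKM at 20 months and 25.3 ± 1.75 at 2 months (-0.30 ± 0.06, adjusted p = 0.00177, and -0.08 after scaling, adjusted p = 0.298). Atp7a, the copper pump that supplies secreted enzymes such as Sod3, fell to 2.89 ± 0.0437 FPKM, against 5.76 ± 0.442 FPKM at 2 months (-0.79 ± 0.08, adjusted p = 3.30e-05, and -0.61 after scaling).

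Selenoprotein genes and those of selenocysteine synthesis, the machinery that Gpx1, Gpx3 and Gpx4 need, rose in 3 and fell in 3 of 18 at 10 against 2 months, and 5 rose and 10 fell at 20 against 2 months (6 and 5 after scaling). Beside this and the lists that follow, 19.0% of all tested genes rose and 11.4% fell at 10 against 2 months. The shares at 20 against 2 months were 18.6% and 49.6% (31.1% and 31.2% after scaling). Msrb1, a selenium-dependent methionine sulfoxide reductase, fell by 0.55 ± 0.06 (adjusted p = 2.65e-05, and -0.34 after scaling). Selenon, a selenoprotein of the endoplasmic reticulum, fell by 0.72 ± 0.07 (adjusted p = 2.57e-05, and -0.50 after scaling), and Selenoi by 0.61 ± 0.06 (adjusted p = 1.67e-05, and -0.40). Selenok changed by -0.25 as deposited (adjusted p = 7.33e-05), which was not called after scaling (-0.02, adjusted p = 0.603). Genes of the peroxisome, where catalase resides, rose in 3 and fell in 1 of 14 at 10 against 2 months, and 3 rose and 8 fell at 20 against 2 months (4 and 4 after scaling). Hsd17b4, an enzyme of peroxisomal beta-oxidation, rose by 0.70 ± 0.07 (adjusted p = 2.02e-05, and 0.92 after scaling). The peroxisome assembly gene Pex6 fell by 0.34 ± 0.07 (adjusted p = 0.00205, and -0.18 after scaling). Of 16 genes of superoxide sources 4 were tested, of which 1 rose and 2 fell at 20 against 2 months (2 and 1 after scaling). Cyba, the membrane subunit shared by several NADPH oxidases, fell to 2.27 ± 0.299 FPKM at 20 months, against 5.16 ± 1.17 FPKM at 2 months (-0.90 ± 0.13, adjusted p = 0.000283, and -0.73 after scaling). Aox1, an aldehyde oxidase, rose by 0.37 at 20 against 10 months (adjusted p = 0.0105, and 0.56 after scaling). The NADPH oxidase genes Nox4 and Cybb averaged 0.309 and 0.00661 FPKM at 20 months and 0.0444 and 0.0172 FPKM at 2 months, below the filter. Xdh, which encodes xanthine dehydrogenase, rose by 0.69 ± 0.10 at 20 against 2 months (adjusted p = 0.000184). Its call at 10 against 2 months (adjusted p = 0.0466) and that of Rac1, a small GTPase that activates NADPH oxidases, in the other direction (adjusted p = 0.0435) were both lost without any 1 of the 2- or 10-month libraries. Rac1 fell by 0.28 at 20 against 2 months as deposited (adjusted p = 9.78e-05) but was not called after scaling (-0.05, adjusted p = 0.160). At 10 against 2 months Rac1 changed by -0.11 as deposited and by -0.15 after scaling (adjusted p = 0.00714). The FOXO, SIRT and PGC1 list had 1 of 7 higher and 0 lower at 10 against 2 months, and 1 higher and 3 lower at 20 against 2 months (3 and 2 after scaling), with Foxo3, an activator of Sod2 and Cat, at 4.97 ± 0.907 FPKM at 20 months and 8.24 ± 0.434 at 2 months (-0.64 ± 0.11, adjusted p = 0.000570, and -0.44 after scaling). Tfam, the mitochondrial transcription factor gene, rose by 0.26 at 10 against 2 months (adjusted p = 0.00173). Ucp2, a mitochondrial carrier gene, fell by 0.25 (adjusted p = 0.000180) as deposited but was not called after scaling (-0.02, adjusted p = 0.604). Ppargc1b, a coactivator gene of mitochondrial biogenesis, averaged 0.957 FPKM at 2 months, 0.995 at 10 months, then 0.372 at 20 months. It passed the filter through younger libraries alone, as no 20-month library exceeded 0.447 FPKM. Its call (-0.52, adjusted p = 0.00145, and -0.44 after scaling) was thus favoured by the filter and lies near the floor.

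Markers of NP cells and of other cell types also moved with age, and their part in the changes above was not tested. Red blood cells carry catalase, GPX1 and peroxiredoxins, which is not a complete list of their antioxidant enzymes. The 7 listed of 8 red cell genes summed to 82.9 to 93.2 FPKM at 2 months, 9.62 to 10.6 at 10 months, then 36.7 to 42.5 at 20 months, with Alas2, Slc4a1 and Epor below 1 FPKM in every library. Of the members for these red cell enzymes, Gpx1 averaged 188 FPKM at 2 months, 161 at 10 months, then 172 at 20 months. These deposited means had the same order of the ages as the red cell sums, but the 10- and 20-month libraries of Gpx1 overlapped. After scaling Gpx1 was instead higher at 20 than at 2 months (0.11, adjusted p = 0.0452). Cat rose and Prdx1 fell at each step as deposited. Sod1, not among the enzymes named above, averaged 171 FPKM at 2 months, 170.5 at 10 months, then 236 at 20 months. The 12 macrophage and leukocyte genes summed to 15.3 to 15.9 FPKM at 2 months, 19.5 to 21.3 at 10 months, then 16.0 to 19.2 at 20 months. Of these, 9, among them Ptprc, Adgre1 and Cd163, were below 1 FPKM in every library. The tested genes went different ways at 20 against 2 months. Csf1r rose by 0.61 (adjusted p = 6.68e-05), Cd68 fell by 0.75 (adjusted p = 0.00283) and Lyz2 was not called (adjusted p = 0.0987). At 10 against 2 months Csf1r alone was called (0.69, adjusted p = 0.000212). The 8 listed skeletal muscle genes summed to 4.87 and 4.54 FPKM in 20-month replicates 1 and 2 and to 271 FPKM in replicate 3, against 19.8 to 30.2 FPKM in the younger libraries. Without that library 8 members were called both for 20 against 2 months, where Gpx1 lost its call, and for 20 against 10 months, where Gpx1 gained one. Annulus and tendon genes summed to 82.2 FPKM in that library, to 23.2 and 27.1 in the other 20-month libraries and to 15.5 to 17.8 in the younger ones. Within that list Col1a1, a collagen gene, fell by 2.41 (log2) at 10 against 2 months (adjusted p = 0.00133) while Dcn, which encodes decorin, rose by 1.85 (adjusted p = 0.0148). Endothelial and pericyte genes summed to 2.03 to 2.62 FPKM at 2 months, 4.50 to 4.88 at 10 months, then 2.78 to 3.29 at 20 months, with 6 genes, among them Cdh5, Kdr and Vwf, below 1 FPKM in every library. Cartilage and bone genes summed to 16.7 to 17.4 FPKM at 2 months, 10.7 to 11.6 at 10 months, then 5.56 to 7.28 at 20 months, with no overlap. Most of that sum was Acp5, an osteoclast and macrophage enzyme gene, which averaged 15.2 FPKM at 2 months, 8.73 at 10 months, then 4.94 at 20 months. NP and notochord genes summed to 30865 to 32204 FPKM at 2 months, 26680.2 to 26998 at 10 months, then 26578 to 27919 at 20 months, so that both older ages lay below 2 months. Of 9 tested NP genes 0 rose and 6 fell at 10 against 2 months, and 1 rose and 6 fell at 20 against 2 months (4 and 5 after scaling), with Foxf1, Pax1 and Shh below 1 FPKM in every library. The shares of all tested genes were 19.0% and 11.4%, then 18.6% and 49.6% (31.1% and 31.2% after scaling).

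For each member the gene with the most similar profile was sought by Pearson's r of log2(FPKM + 1) over the 9 libraries, among 7064 genes with a mean of at least 5 FPKM. As the libraries fall into 3 ages, the values describe a shared age pattern for the members that differed with age. Gpx4 did not differ as deposited, so its value reflects the spread between libraries of an age. Gpx3 was most like Tagln, an actin-binding gene (r = 0.996), Cat most like Ncl, which encodes nucleolin (r = 0.995), and Sod1 most like the cytochrome c oxidase subunit gene Cox4i1 (r = 0.993). Prdx1 was most like Rhoa (r = 0.998), Sod3 most like St3gal2 (r = 0.992) and Nqo1 most like Evc (r = 0.995). For Hmox1 this was Actn1 (r = 0.981), for Sod2 Pkn2 (r = 0.947), for Gpx1 Myo5a (r = 0.930) and for Gpx4 Clic2 (r = 0.909).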

How the data were processed

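The authors deposited a table of 18923 genes with FPKM per library and a table of 24143 transcripts with FPKM and read coverage, per the file headers. Coverage is a signal per base that is not scaled for depth. StringTie 1.3.4d, HISAT2 2.0.4 and cutadapt 1.9 are listed, besides edgeR and DESeq2, per the submitters' processing notes, with no roles. Build, annotation version and strandedness: not given in the sources used here. The 9 input libraries were grouped by the age in their titles.

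A gene was tested if 3 or more of the 9 libraries reached an FPKM of 1. The test was limma 3.58.1 (R 4.3.3, trended empirical Bayes) on log2(FPKM + 1), in 1 fit over the 3 ages. Calls are Benjamini-Hochberg adjusted p under 0.05 over all 11708 tested genes, and all adjusted p-values come from limma. Such fold changes understate those of low genes. Isoform shares were tested likewise as log2 of an isoform's FPKM over that of the remaining isoforms (0.5 added to each). Replicates of an age correlated across genes at r = 0.984 to 0.993, and no 2 libraries were duplicates. The script was tested on simulated data. Alternatives were other pseudocounts and filters, median-of-ratios scaling, fits of only the 2 ages compared, a replicate block and leaving out each library.

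The members, lists and ratios were chosen with earlier results of these data known. All 10 members are named; from each list the up to 4 called genes with the smallest adjusted p in any comparison are named, plus Nfe2l2, Keap1 and Bach1, and of the Gpx4 transcripts those with a mean FPKM of at least 1. Of the peroxisome list, some genes that this rule picks are not reported here. Nox4, Cybb, Mt3 and the markers were named after their values were seen. Reads of close paralogs and overlapping genes may have been split by the quantification, for the metallothioneins among others.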

Additional observations from a re-analysis of the deposited data

How the results depend on the processing

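Of 450 values of the members' log2 changes under the alternatives, 427 kept their direction and their side of the threshold, 5 gained and 5 lost a call at the same sign, and 13 changed sign. Median-of-ratios scaling changed most: for 20 against 10 months 6 members were higher and 1 lower in place of 3 and 4, and the sign turned for Gpx1 at 20 against 2 months (0.11), Gpx4 at 10 against 2 months (-0.03) and at 20 against 10 months (0.26), Sod2 (0.20) and Hmox1 (0.04) at 20 against 10 months. Of these, Gpx4 and Sod2 at 20 against 10 months also gained a call and Hmox1 lost one. The cause was not tested. Rising genes made up 62.5, 27.2 and 17.7% of all calls as deposited (10 against 2, 20 against 2 and 20 against 10 months) and 51.0, 49.9 and 51.1% after scaling. Leaving out 1 library turned the sign of uncalled changes near 0: Sod1 at 10 against 2 months ranged from -0.02 to 0.0027, Gpx4 from -0.01 to 0.02, from -0.04 to 0.06 (20 against 2 months) and from -0.05 to 0.05 (20 against 10 months), and Sod2 at 20 against 10 months from -0.12 to 0.04. The called members numbered 7 to 8, 8 to 9 and 7 to 8 in the 3 comparisons when any 1 library was left out. Replicate numbers did not pair the libraries (correlations of deviations from -0.04 to 0.049), and with the replicate block 7, 9 and 7 members were called, as without it. Redox list genes called at 10 against 2 months numbered 43, and 29 to 49 without 1 library. Called counts of single lists moved by over 1.5 times without 1 library at 10 against 2 months for peroxiredoxins and thioredoxins (4 in place of 7 without 2-month replicate 3 or any 10-month library), glutathione (5 in place of 9 without 2-month replicate 2 or 10-month replicate 1), NRF2 regulators (4 in place of 2 without 20-month replicate 1 or 3), selenoproteins (3 in place of 6 without 10-month replicate 3) and superoxide sources (0 in place of 2 without any 2- or 10-month library, and 1 without 20-month replicate 1), at 20 against 2 months for peroxisomes (7 in place of 11 without 2-month replicate 2), and at 20 against 10 months for peroxiredoxins and thioredoxins (9 in place of 5 without 20-month replicate 2). Gpx4 isoform shares gave 0 calls in every setting.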
